A study of Homo sapiens with 12 samples.

Results

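Replication-dependent histone genes encode the bulk of the nucleosome: H2A, H2B, H3 and H4, which form the octamer that DNA wraps around, and the linker histones H1-1 to H1-6, which bind between nucleosomes. They were chosen as the protein-coding genes with the current symbols H1-1 to H1-6 or a symbol starting with H2AC, H2BC, H3C or H4C that both deposited tables hold. This gave 65 genes (6 H1, 15 H2A, 18 H2B, 11 H3 and 15 H4) of 18948 genes matched in both tables. A further 4 genes met the symbol rule but were matched in the LP-1 table alone and were not used. Of the 65 genes, 53 lie in the large cluster HIST1 on chromosome 6, 9 in HIST2 and 2 in HIST3 on chromosome 1, and 1, H4C16, on chromosome 12.

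RNA was sequenced from LP-1 and U266, established human myeloma lines labelled wild type and bone marrow. Cells of each line received dihydroartemisinin (DHA), an iron-activated artemisinin derivative, at its IC50, or DMSO, its solvent, for 12 h. Each of the 4 groups (LP-1 with DHA, LP-1 with DMSO, U266 with DHA, U266 with DMSO) held 3 libraries, and nothing says that these came from separate cultures. Values are FPKM, in which reads are scaled by transcript length and library size, with 1 table per line.

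Most cells need these genes in S phase, when new DNA has to be packed. NPAT, bound at histone gene clusters and switched on by cyclin E with CDK2, drives their transcription. Their mRNAs are the main group in animal cells that ends in a conserved stem-loop in place of a poly(A) tail; the stem-loop binding protein SLBP and the U7 snRNP, of which ZNF473 is a cofactor, direct the cut just after it. Some of these genes also give longer, polyadenylated mRNAs, mostly in cells that do not divide or that differentiate. How much of the pool a library captures thus depends on whether it was primed or selected by poly(A). These libraries were made with a kit named for mRNA, and its priming step is not stated.

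The stem-loop was searched in the GENCODE v29 transcripts (GRCh38) as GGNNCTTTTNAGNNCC on the transcript strand, and 28 of the 65 genes had it. Among transcripts that hold the motif, those of 22 genes ran at least 100 bases past it and those of 6 genes ended near it. The other 37 models held no match in their annotated sequence, 30 of them being models of the coding sequence alone. H2BC5 was counted among the 6, with 39 bases past the motif, although its gene model runs on to chr6:26171349. The stem-loops of 7 genes with called changes or known polyadenylated forms are printed here, since these letters mark the usual 3′ end, with the motif in capitals and 5 bases on each side.
H2AC6 stem-loop: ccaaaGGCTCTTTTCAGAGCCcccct
H2AC11 stem-loop: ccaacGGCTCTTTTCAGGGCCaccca
H2BC5 stem-loop: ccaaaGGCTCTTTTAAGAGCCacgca
H2BC21 stem-loop: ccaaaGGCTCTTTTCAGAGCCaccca
H3C8 stem-loop: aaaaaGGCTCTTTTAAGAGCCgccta
H4C8 stem-loop: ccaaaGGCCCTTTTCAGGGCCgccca
H4C9 stem-loop: aaaaaGGCCCTTTTTAGGGCCcctaa
In the order shown they lie at chr6:26124664-26124689 (plus strand), chr6:27133510-27133535 (plus strand), chr6:26158582-26158607 (plus strand), chr1:149886183-149886208 (minus strand), chr6:26270918-26270943 (minus strand), chr6:26285126-26285151 (minus strand) and chr6:27139649-27139674 (plus strand). H2AC6, H2BC21 and 13 other genes carried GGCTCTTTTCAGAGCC, and H4C8 and 4 other H4 genes carried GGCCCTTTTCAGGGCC. H2AC11 was the 1 gene with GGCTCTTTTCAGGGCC. H4C9, H4C14 and H4C15 carried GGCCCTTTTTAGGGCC.

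Promoters from 250 bases before to 50 bases after the start were taken from RefSeq (GRCh38.p14), where 60 of the 65 genes had an entry. The octamer ATTTGCAT, which POU2F1 (Oct-1) binds, was found on either strand in 14 of 18 H2B and 11 of 14 H2A promoters, in 1 of 9 H3 promoters and in none of 6 H1 and 13 H4 promoters, against 1.80% of all 27305 promoters in the table. The 1 H3 window, that of H3C4, is the same window as that of H2AC7 (chr6:26199244-26199543, minus strand). It lies away from the GENCODE v29 model of H3C4 (chr6:26196840-26197250), so this match is the H2AC7 window counted again. Windows of neighbouring H2A and H2B genes can overlap too, so that a single octamer counts for both. This holds for H2BC21 (chr1:149886633-149886932) and H2AC20 (chr1:149886668-149886967). The H2A and H2B counts are therefore not counts of separate sites. The H1 box AAACACA was found in 6 of 6 H1 promoters, in 9 histone promoters in all and in 5.76% of all promoters. CCAAT was found in 50 histone promoters, among them 3 of 13 H4 promoters, and in 35.7% of all promoters, and TATAAA in 39 and in 12.0%. The promoters of 3 genes are shown, being the H1 genes tested in LP-1 and the H2B gene with the largest rise there, with every match to these 4 motifs, on either strand, in capitals.
H1-2 promoter: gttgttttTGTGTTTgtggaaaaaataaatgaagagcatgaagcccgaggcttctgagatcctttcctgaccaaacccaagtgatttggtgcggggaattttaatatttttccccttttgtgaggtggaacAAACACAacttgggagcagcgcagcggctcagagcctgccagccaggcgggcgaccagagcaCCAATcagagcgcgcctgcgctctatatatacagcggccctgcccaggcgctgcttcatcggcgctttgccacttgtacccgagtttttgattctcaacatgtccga
H1-4 promoter: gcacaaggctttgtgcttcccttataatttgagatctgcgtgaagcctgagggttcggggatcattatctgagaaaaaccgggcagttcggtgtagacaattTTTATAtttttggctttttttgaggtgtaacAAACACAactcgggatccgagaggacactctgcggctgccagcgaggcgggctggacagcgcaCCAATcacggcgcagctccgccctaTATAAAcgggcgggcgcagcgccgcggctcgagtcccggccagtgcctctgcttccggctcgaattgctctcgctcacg
H2BC21 promoter: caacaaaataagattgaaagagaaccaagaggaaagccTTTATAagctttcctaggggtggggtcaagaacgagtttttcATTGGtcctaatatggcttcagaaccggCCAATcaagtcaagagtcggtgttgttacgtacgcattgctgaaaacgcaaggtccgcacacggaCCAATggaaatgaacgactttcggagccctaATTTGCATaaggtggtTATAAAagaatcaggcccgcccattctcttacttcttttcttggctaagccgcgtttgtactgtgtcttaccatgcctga
These windows lie at chr6:26056421-26056720 (minus strand), chr6:26156079-26156378 (plus strand) and chr1:149886633-149886932 (minus strand). H1-2 and H1-4 share the H1 box followed by CCAAT, and H2BC21 has CCAAT boxes, an octamer and TATAAA.

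Libraries held 13.4 to 17.5 M reads in LP-1 and 10.3 to 21.7 M reads in U266, as read from the spacing of low FPKM values. A floor of 3 reads on a gene of 500 bases was worth 0.343 to 0.447 FPKM in LP-1 libraries and 0.276 to 0.584 FPKM in those of U266, for counting error alone. In U266, DHA replicate 3 stood apart, with 18399 genes above 0 against 14682 to 14992 in the other 5 libraries. In LP-1, DMSO replicate 3 stood apart from the other DMSO libraries in several of the genes below. The 8 plasma cell markers summed to 931 to 943 FPKM with DHA and 996 to 1358 FPKM with DMSO in LP-1, and to 706 to 773 FPKM with DHA and 1045 to 1064 FPKM with DMSO in U266. In LP-1 the 5 B cell markers reached at most 2.61 FPKM in sum, the 5 T cell markers 0.34 FPKM, with CD3D and CD3G at 0 in every library, and the 5 monocyte markers 0.26 FPKM, with FCGR3A at 0. In U266 those 3 sums overlapped between the groups. They were 0.634 to 9.01, 1.39 to 5.58 and 0.648 to 5.89 FPKM with DHA. With DMSO they were 0.944 to 1.58, 1.46 to 2.12 and 0.639 to 0.803 FPKM. The stromal and endothelial markers summed to 1.61 to 1.66 FPKM with DHA and 3.97 to 5.29 FPKM with DMSO in LP-1, and to 5.26 to 9.04 FPKM with DHA and 2.84 to 3.44 FPKM with DMSO in U266. The part of these markers in the changes below was not tested. In bulk RNA, fewer cells in S phase and less histone RNA per cell cannot be told apart.

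The tables did not treat these genes alike. Low values of the histone genes in U266 came out as whole reads, within 0.1 read, in 55 of 58 cases (94.8%) with GENCODE v29 exon lengths and in 15 of 67 (22.4%) with RefSeq gene spans. Only RefSeq spans under 3000 bases were used, which left out H2BC4, H2BC5 and H2BC12 among others. In LP-1 the fit to the lengths was the other way round, with 23 of 110 cases (20.9%) for GENCODE v29 and 93 of 117 (79.5%) for RefSeq. So levels were read within each table and are not set against each other between the lines, and the fit of both lines compares changes within each table. In addition, 15 of the 65 genes share an exact run of 100 transcribed bases with another of the 65, and 15 overlap another annotated gene, so reads of these genes could have been assigned to a neighbour or copy.

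In neither line did the DHA and DMSO libraries separate by the share of the signal that histone genes held. The share of the summed FPKM was 0.212%, 0.216% and 0.210% in the DHA libraries of LP-1, against 0.210%, 0.188% and 0.255% in its DMSO libraries. In U266 it was 7.74%, 8.11% and 7.13% in the DHA libraries, against 6.92%, 7.88% and 7.16% in the DMSO libraries. The means were 0.213% ± 0.00324 with DHA and 0.218% ± 0.0343 with DMSO in LP-1, and 7.66% ± 0.494 with DHA and 7.32% ± 0.499 with DMSO in U266 (SD, n = 3 each). As a sum of FPKM weights short genes up, the reads give a smaller share: in U266 the 65 genes took 1.16% to 1.32% of the reads with DHA and 1.09% to 1.31% with DMSO. The LP-1 share turned on H1-2, its highest gene: without it, the share was 0.167%, 0.170% and 0.162% with DHA, against 0.138%, 0.131% and 0.148% with DMSO, so that all DHA libraries lay above all DMSO libraries. The FPKM of the whole LP-1 table also summed to less with DHA, at 271277 to 274111, against 306658 to 325583 with DMSO. A share rises as that total falls, and what part the total had in this separation was not tested.

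**Figure D1:**
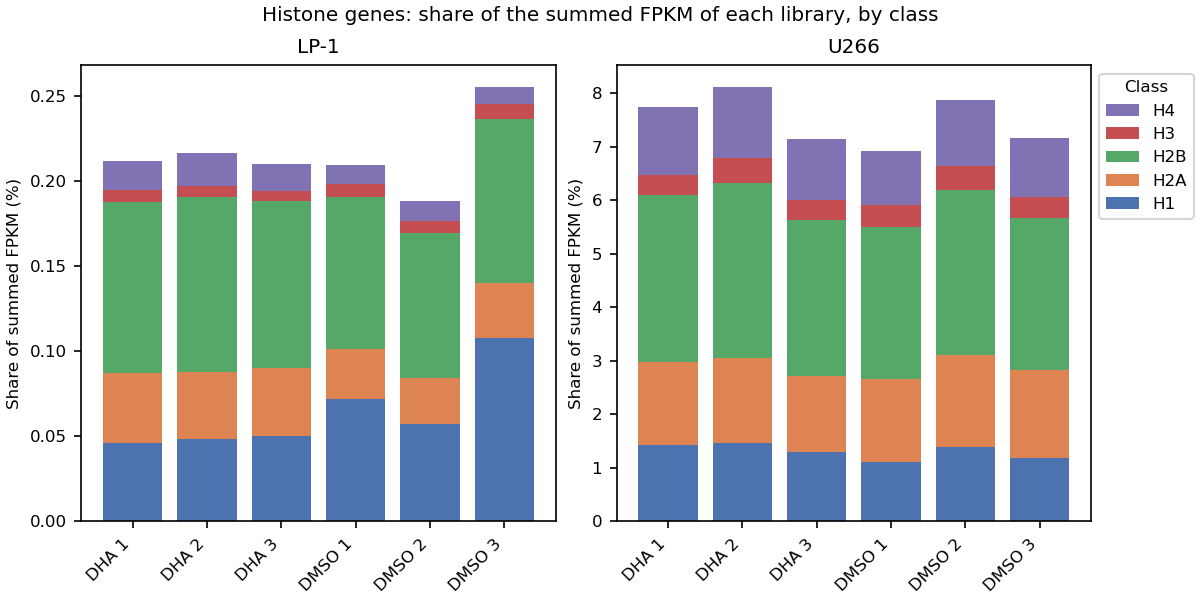
Share of the summed FPKM of each library held by the 65 histone genes (y axis, percent; the scales of the panels differ), stacked by class, for LP-1 (left) and U266 (right), with 3 DHA and 3 DMSO libraries each. The totals overlap between DHA and DMSO in both lines, and in LP-1 the H1 part is smaller in every DHA library than in any DMSO library.

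Within the pool, several classes held parts that did not overlap between DHA and DMSO. In LP-1, H1 held 21.8% to 23.8% of the histone FPKM with DHA and 30.3% to 42.3% with DMSO, while H4 held 7.71% to 8.83% with DHA and 3.94% to 6.25% with DMSO. H2A held 18.1% to 19.5% with DHA and 12.6% to 14.6% with DMSO, H2B 46.8% to 47.5% with DHA and 37.7% to 45.4% with DMSO, and H3 2.66% to 3.28% with DHA and 3.45% to 3.67% with DMSO. In U266, H2A held 19.7% to 20.1% with DHA and 21.8% to 23.0% with DMSO, H1 17.99% to 18.4% with DHA and 15.9% to 17.7% with DMSO, and H4 15.9% to 16.5% with DHA and 14.6% to 15.7% with DMSO. H2B (40.2% to 40.8% with DHA, 39.1% to 40.8% with DMSO) and H3 (4.95% to 5.54% with DHA, 5.37% to 6.07% with DMSO) overlapped between the groups. The parts of a library add up to the whole, so a class can hold less because another held more. As sums of FPKM, every U266 class overlapped between the groups. H1 summed to 3000 to 3392 with DHA and 2513 to 3316 with DMSO. H2A summed to 3259 to 3706 with DHA and 3575 to 4078 with DMSO, and H4 to 2625 to 3104 and 2310 to 2934. In LP-1, H2B overlapped as a sum (270 to 279 with DHA, 262 to 313 with DMSO), while H1, H2A, H3 and H4 did not.

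A few genes carried most of the LP-1 signal. The 6 genes with known polyadenylated forms (H1-2, H2AC6, H2BC4, H2BC5, H2BC12 and H2BC21) held 75.3% to 77.7% of it with DHA and 80.8% to 86.3% with DMSO. Their median level was 64.6 FPKM over the 6 libraries, against 0.312 FPKM for the other 59 genes. In U266 the same 6 genes held 38.1% to 38.4% of the histone FPKM with DHA and 34.1% to 34.5% with DMSO, with a median of 816 FPKM, against 55.6 FPKM for the other 59. In LP-1, 27 to 29 of the 65 genes reached 1 FPKM in the DHA libraries and 21 to 23 in the DMSO libraries, and in U266 it was 52 to 54 in each library. How many genes at large reached 1 FPKM in each library was not counted, so the LP-1 difference is not shown to be particular to histone genes.

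In LP-1, DHA was followed by higher RNA of H4C8, H2BC21, H2AC11 and H2BC15 and by lower RNA of H4C9, H1-2 and H3C8. Of the 65 genes, 26 passed the filter of at least 1 FPKM in at least 3 of the 6 libraries. Of these, 7 rose and 3 fell at an adjusted p under 0.05 (limma on log2(FPKM + 1), adjusted over all 12514 genes tested), and 16 did not pass. Over all genes tested, 20% rose and 20.2% fell. Of the 7 rises, those of H1-4, H2BC13 and H2BC18 are of genes that passed the filter through the DHA libraries alone, which favours a rise. Among the other 23 genes, 4 rose and 3 fell, with a median log2 change of 0.02, against 0.01 over all genes. The remaining 39 genes lay too low to be tested. Without DMSO replicate 3, 9 rose and 6 fell, and without DMSO replicate 2, 7 rose and 5 fell. The shares over all genes were not counted with these libraries left out.

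Of the linker histones in LP-1, H1-2 fell, and H1-4 was higher with DHA but had passed the filter through that group alone. H1-2 (chr6:26055787-26056428, minus strand), the most abundant histone gene of the table and one that can make polyadenylated mRNA, was at 120.5, 126 and 133 FPKM with DHA, against 221, 174 and 350.2 FPKM with DMSO. All DHA libraries lay below all DMSO libraries, and DMSO replicate 3 was the highest by far. H1-2 fell by 0.91 on the log2 scale (SE 0.25, adjusted p = 0.028), and the value was -0.63 without DMSO replicate 3; the call was lost under 5 of 14 alternatives, and the adjusted p ranged from 0.00263 to 0.0925 over them. H1-4 (chr6:26156354-26157107, plus strand) was at 3.56, 3.34 and 3.58 FPKM with DHA, against 0.95, 0.38 and 0.74 FPKM with DMSO. The DHA libraries lay closely together, and the DMSO values were near the floor. Its log2 change was 1.42 (SE 0.14), a ratio of means of 5.06, and in the fit with no filter, over 31244 genes, its adjusted p was 0.00386. H1-3 and the other 3 linker histones were not tested in LP-1.

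Among H4 genes, which all encode the same protein or nearly so, the highest one in LP-1 rose and the next fell. H4C8 (chr6:26277609-26285638, minus strand) was at 30.01, 31.1 and 30.1 FPKM with DHA, against 12.4, 13.8 and 13.4 FPKM with DMSO. The groups were far apart for their spread, and H4C8 rose by 1.14 on the log2 scale (SE 0.07, adjusted p = 0.000212). H4C9 (chr6:27138588-27139881, plus strand) was at 2.86, 4.89 and 2.66 FPKM with DHA, against 8.81, 8.39 and 10.9 FPKM with DMSO. Every DHA library lay below every DMSO library, and H4C9 fell by 1.24 on the log2 scale (SE 0.20, adjusted p = 0.0046). The GENCODE v29 models of both run past the stem-loop, but low LP-1 values of the histone genes fitted RefSeq gene spans better. Those spans are 409 bases for H4C8 and 397 for H4C9, against GENCODE v29 exon lengths of 2163 and 1294. Of the 5 H4 genes tested, H4C5, H4C12 and H4C16 did not pass, with log2 changes of 0.28, 0.02 and 0.40.

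Among H2A and H2B genes in LP-1, H2BC21, H2AC11 and H2BC15 rose and none fell. H2BC21 (chr1:149884459-149886652, minus strand), an H2B gene with a long polyadenylated form, was at 42.4, 45.2 and 41.8 FPKM with DHA, against 23.6, 24.1 and 18.4 FPKM with DMSO. It rose by 0.95 on the log2 scale (SE 0.12, adjusted p = 0.00177). H2AC11 (chr6:27133042-27135291, plus strand) was at 16.8, 16.1 and 15.6 FPKM with DHA, against 8.60, 8.56 and 8.42 FPKM with DMSO. In both genes the groups were well apart, and H2AC11 rose by 0.85 (SE 0.07, adjusted p = 0.000413). H2BC18 (1.56, 1.11 and 1.21 FPKM with DHA, 0.37, 0.33 and 0.40 FPKM with DMSO) had a log2 change of 0.74 and H2BC13 one of 0.63, both being genes that the DHA libraries alone brought past the filter. With no filter the adjusted p was 0.0131 for H2BC18 and 0.0871 for H2BC13. H2BC15 rose by 0.30 (adjusted p = 0.0324). H2BC15 and H2BC18 overlap other annotated genes, and the call on H2BC15 was lost under 6 of 14 alternatives.

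The other genes with polyadenylated forms did not pass in LP-1. H2BC12 was at 142, 136 and 131 FPKM with DHA, against 151, 136 and 178 FPKM with DMSO (log2 change -0.18, adjusted p = 0.261). H2BC5 was at 46.6, 53.2 and 54.8 FPKM with DHA, against 62.0, 61.3 and 78.3 FPKM with DMSO. These groups did not overlap, and the log2 change of H2BC5 was -0.37 with an adjusted p of 0.0542. It passed as a fall under 5 of 14 alternatives, among them all 12 libraries in 1 fit (0.0126), quantile normalization (0.0235), the replicate block (0.0497), without DMSO replicate 2 (0.0454) and without DMSO replicate 3 (-0.26, 0.0282). H2AC6 (log2 change 0.14) and H2BC4 (-0.07) overlapped between the groups. H2AC6 passed as a rise without DMSO replicate 3 (0.29, adjusted p = 0.00486) and with quantile normalization (0.24, 0.0432). Thus, among the 6 genes, H2BC21 rose, H1-2 fell and 4 did not pass, in a set whose median log2 change was -0.13.

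H3 had 2 tested genes in LP-1. H3C8 (chr6:26269405-26271815, minus strand) was at 6.73, 5.53 and 4.82 FPKM with DHA, against 10.1, 9.25 and 10.3 FPKM with DMSO. All DHA values lay below all DMSO values, and H3C8 fell by 0.71 on the log2 scale (SE 0.12, adjusted p = 0.00521). H3C10, the other tested H3 gene and the highest, overlapped between the groups (log2 change -0.41, adjusted p = 0.134). Its change was -0.59 without DMSO replicate 2, where it passed (adjusted p = 0.0298), and -0.22 without DMSO replicate 3, and it passed with all 12 libraries in 1 fit (0.0393).

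**Figure D2:**
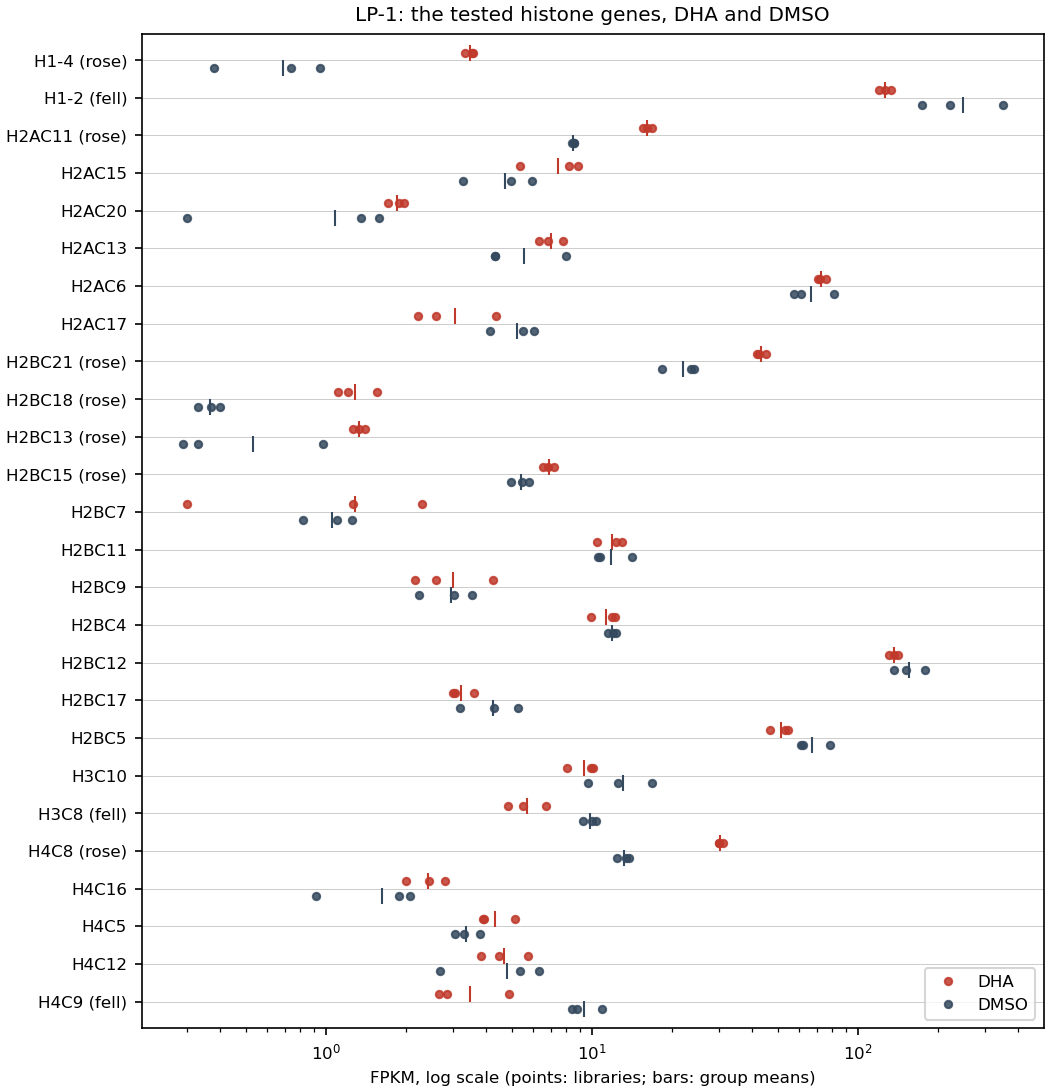
FPKM (x axis, log scale) of the 26 tested histone genes in the 6 LP-1 libraries, with DHA (red) above DMSO (dark) for each gene, 1 point per library and a bar at the group mean. H4C8 and H2BC21 lie to the right with DHA, and H1-2 and H4C9 to the left.

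In U266, DHA was followed by lower RNA of H2AC12, H2AC4, H3C13, H2BC14 and H1-3 among others, and by higher RNA of H4C3, H3C10 and H2BC4 among others. Of the 65 genes, 53 were tested, and 8 of them rose, 11 fell and 34 did not pass. Of all 10422 genes tested in U266, 21.1% rose and 19.6% fell. The median log2 change of the 53 genes was -0.03, against 0.02 over all genes, and the changes ran from -0.78 to 0.79. The count of rises moved with the setting. It was 2 with TMM-style scaling, beside 10 falls, and 11 with quantile normalization, beside 11 falls. It was 5 without DHA replicate 1, 3 without DHA replicate 2 and 5 without DMSO replicate 1. With all 12 libraries in 1 fit, which tests only genes kept in both tables (25 of the 65, with 4 of the 8 rises and 4 of the 11 falls), 2 rose and none fell. Under these other settings the shares over all genes were not counted.

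H2A genes held the largest falls in U266. H2AC12 (chr6:27147129-27147515, plus strand) was at 349.8, 394 and 306 FPKM with DHA, against 581, 628 and 583 FPKM with DMSO. The groups were well apart, and H2AC12 fell by 0.78 on the log2 scale (SE 0.09, adjusted p = 6.37e-05). H2AC4 was at 94.4, 83.4 and 66.7 FPKM with DHA, against 111, 151 and 129.6 FPKM with DMSO, and fell by 0.68 (SE 0.13, adjusted p = 0.00204). H2AC14 and H2AC15 also fell, by 0.32 and 0.23, although the groups of H2AC15 overlapped and most of the H2AC14 sequence (80.9% of its windows of 100 bases) occurs in another of the 65 genes. H2AC25 rose by 0.33 and H2AC6 by 0.28, with adjusted p-values of 0.0235 and 0.0289; these calls were lost under 7 of 13 and 8 of 14 alternatives, and without DMSO replicate 1 the change of H2AC6 was 0.17. H2AC20, the highest H2A gene at a mean of 1126 FPKM with DHA and 1079 FPKM with DMSO, did not pass (log2 change 0.06, and -0.05 with TMM-style scaling). H2AC13, the next highest, did not pass either (0.11; 0.21 without DMSO replicate 2, where it passed).

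H2B genes split evenly in U266, with 4 rises and 4 falls among 18 tested. H2BC4, a gene with a polyadenylated form, was at 1287, 1308 and 1144 FPKM with DHA, against 986, 1056 and 1008 FPKM with DMSO. All DHA libraries lay above all DMSO libraries, and H2BC4 rose by 0.29 on the log2 scale (SE 0.07, adjusted p = 0.00928). The call was lost under 4 of 14 alternatives, among them without DHA replicate 2 (0.26) and without DMSO replicate 3 (0.29), and the adjusted p reached 0.371. H2BC1, best known from testis, rose by 0.79 (SE 0.26, adjusted p = 0.0344), at 9.76, 10.5 and 10.4 FPKM with DHA and 4.49, 3.46 and 10.2 FPKM with DMSO. A single DMSO library of H2BC1 lay within the DHA range, and its call was lost under 7 of 13 alternatives, with a change of 0.52 without DMSO replicate 2. H2BC15 and H2BC26 rose by 0.27 and 0.25. H2BC14 was at 51.3, 41.0 and 42.4 FPKM with DHA, against 61.0, 66.2 and 67.1 FPKM with DMSO, and fell by 0.52 (SE 0.08, adjusted p = 0.00054). H2BC9, H2BC10 and H2BC17 fell by 0.36, 0.34 and 0.29. H2BC12, the highest histone gene of the table, was at 3049, 3261 and 2885 FPKM with DHA, against 2559.6, 2877 and 2539 FPKM with DMSO. These groups barely separated, and H2BC12 did not pass (log2 change 0.21, adjusted p = 0.0919, and -0.04 with quantile normalization). It passed as a rise without DHA replicate 3 (0.25) or DMSO replicate 2 (0.26).

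Among linker histones in U266, H1-3 fell and the higher genes H1-2 and H1-4 did not pass. H1-3 was at 295, 335 and 292 FPKM with DHA, against 432, 466 and 383 FPKM with DMSO, with no overlap. It fell by 0.47 on the log2 scale (SE 0.08, adjusted p = 0.00112). H1-2 was at 1708, 1713 and 1491 FPKM with DHA, against 1135, 1541 and 1333 FPKM with DMSO, and its log2 change was 0.30 (adjusted p = 0.0511). H1-4 was at 1333, 1343 and 1214 FPKM with DHA, against 945, 1308 and 998 FPKM with DMSO, and its log2 change was 0.27 (adjusted p = 0.0812). In both genes DMSO replicate 2 reached into the DHA range, and without it both changes passed, at 0.41 and 0.42. H1-2 also passed without DHA replicate 3 (0.37), among genes averaging at least 5 FPKM and with a replicate block, and H1-4 with a replicate block.

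H3 and H4 had 1 rise and 1 fall each in U266. H3C13 (88.8, 112 and 86.6 FPKM with DHA, 133, 153 and 139 FPKM with DMSO) fell by 0.57 on the log2 scale (SE 0.09, adjusted p = 0.00078). H3C10 (299, 316 and 261 FPKM with DHA, 225, 254 and 226 FPKM with DMSO) rose by 0.31 (SE 0.08, adjusted p = 0.00896; the call was lost under 3 of 14 alternatives). H3C7, the highest H3 gene, did not pass (-0.11). H4C3 was at 1169, 1235 and 1042 FPKM with DHA, against 761, 1005 and 864 FPKM with DMSO, all DHA values above all DMSO values, and rose by 0.40 (SE 0.10, adjusted p = 0.0119; the call was lost under 3 of 13 alternatives, among them without DHA replicate 2). H4C9 was at 218, 227 and 187 FPKM with DHA, against 241, 285 and 246 FPKM with DMSO, and fell by 0.29 (SE 0.08, adjusted p = 0.0191; the call was lost under 4 of 14 alternatives). H4C2, the next highest H4 gene, did not pass (0.07, and -0.04 with TMM-style scaling), and neither did the remaining 8 tested H4 genes.

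**Figure D3:**
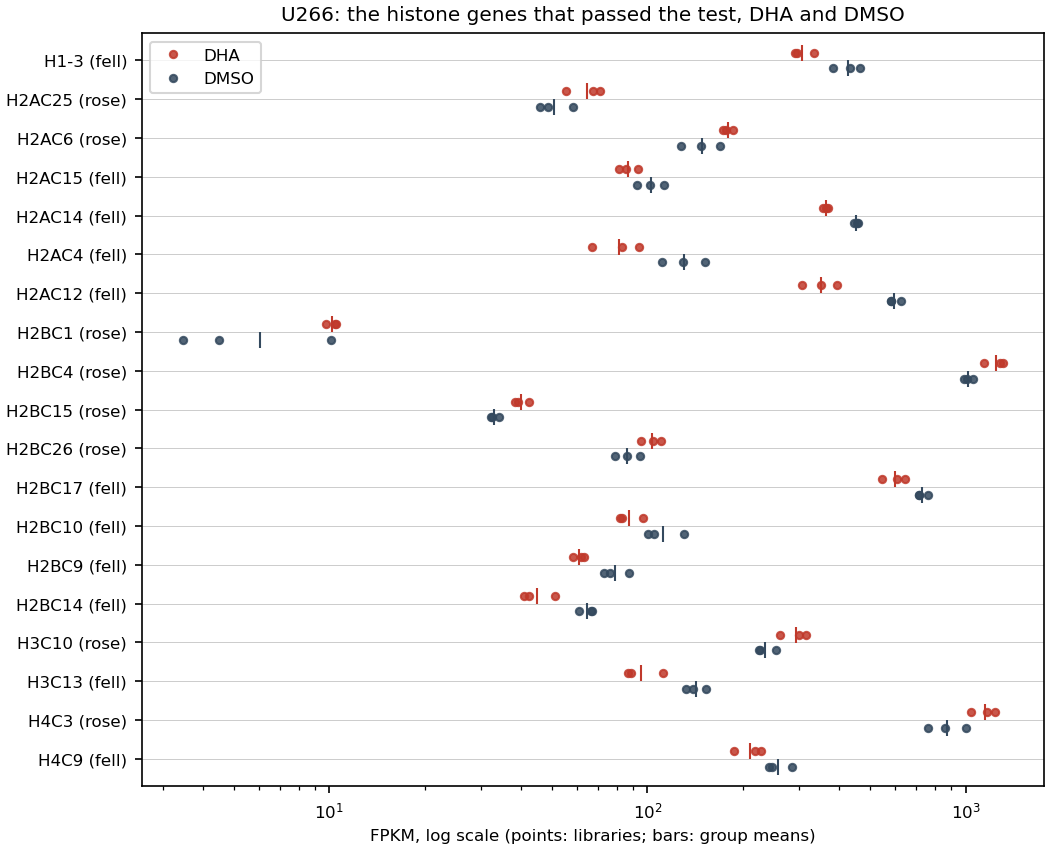
FPKM (x axis, log scale) of the 19 histone genes that rose or fell in U266, with DHA (red) above DMSO (dark) for each gene, 1 point per library and a bar at the group mean. H2AC12, H2AC4 and H3C13 lie to the left with DHA, and H4C3 and H2BC4 to the right.

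The direction in U266 differed between kinds of gene model. Of the 21 tested genes whose GENCODE v29 model is the coding sequence alone, 9 fell and none rose, with a median log2 change of -0.11. Of the 32 tested genes whose model holds untranslated bases, 8 rose and 2 fell, with a median of 0.06. The 6 genes with known polyadenylated forms had 2 rises and no fall, with a median of 0.24. By stem-loop, the 21 tested genes with a transcript running at least 100 bases past it had 6 rises and 2 falls. The 6 whose motif-holding transcripts end near it, among them H2BC5, had neither. The 26 tested genes with no match in the model had 2 rises and 9 falls. Over all genes tested in U266, 21.1% rose and 19.6% fell. The genes of HIST3, H2AC25 and H2BC26, both rose, HIST2 had no rise and 1 fall among 9, and HIST1 had 6 rises and 10 falls among 41. No test was made of these splits, and the models differ in length and in whether they hold 3′ bases.

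**Figure D4:**
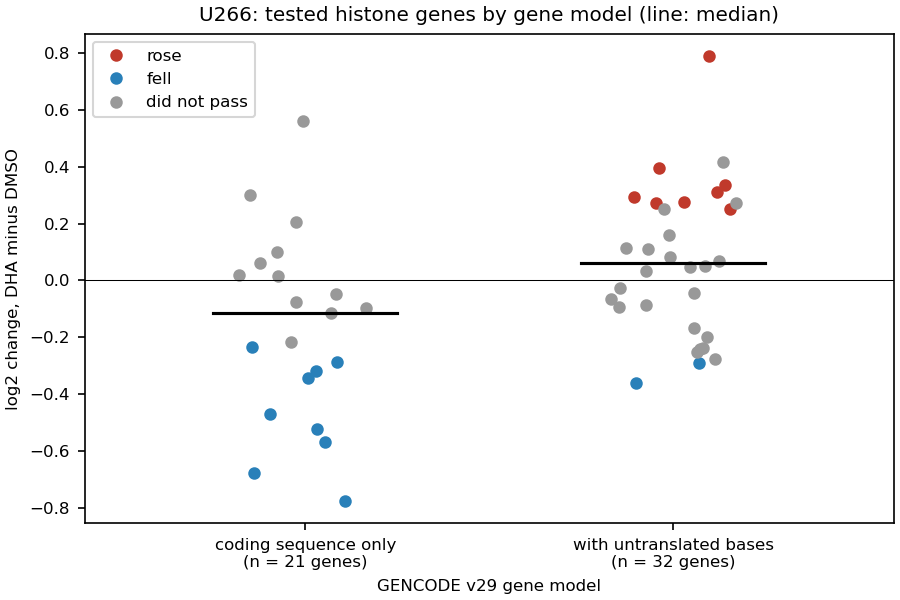
Log2 change with DHA in U266 (y axis, DHA minus DMSO on log2(FPKM + 1)) of the 53 tested histone genes, by kind of GENCODE v29 gene model, 1 point per gene, coloured by whether it rose, fell or did not pass, with a line at the median. Among coding-only models 9 genes fell and none rose, and all 8 rises are in models with untranslated bases.

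The change with DHA differed between the lines for 12 of the 25 histone genes tested in both, by the interaction in a fit of all 12 libraries (limma, adjusted over 8868 genes). Over all 8868 genes, 34.7% differed. The change in LP-1 was above that in U266 for 7 genes (18.6% of all genes) and below it for 5 (16.1%). Of the 7, H1-4, H2BC13 and H2BC18 had passed the LP-1 filter through the DHA libraries alone, which favours a difference upward. The largest differences upward were those of H1-4 (LP-1 minus U266 1.15, SE 0.19, adjusted p = 0.000827), H4C8 (1.03, SE 0.11, adjusted p = 5.25e-05) and H2BC21 (0.99, SE 0.17, adjusted p = 0.00102). H4C8 in U266 was at 195, 199 and 168 FPKM with DHA, against 161, 181 and 176 FPKM with DMSO, and its log2 change was 0.12. H2BC21 in U266 was at 169, 185 and 171 FPKM with DHA, against 157, 213 and 176 FPKM with DMSO. The groups overlapped in both, and H2BC21 had a log2 change of -0.04 there (0.03 with quantile normalization). The largest differences downward were those of H1-2 (-1.21, SE 0.29, adjusted p = 0.00734), H2AC17 (-1.20, SE 0.34, adjusted p = 0.0169) and H4C9 (-0.95, SE 0.23, adjusted p = 0.00806). H2AC17 passed in neither line alone, was low in both and shares 84.0% of its windows of 100 bases with another of the 65 genes. Since the lines differ also in their tables, what part the processing had in these differences cannot be told apart.

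Called in both lines were H4C9, which fell in both, and H2BC15, which rose in both. The H2BC15 call in LP-1 was lost under 6 of 14 alternatives and the H4C9 call in U266 under 4 of 14. How often genes at large were called in both lines was not counted. For H4C9 the fall was larger in LP-1, as the interaction shows. H2BC15 was at 7.23, 6.86 and 6.58 FPKM with DHA and 5.83, 5.47 and 4.97 FPKM with DMSO in LP-1, and at 38.3, 42.5 and 39.2 FPKM with DHA and 32.2, 34.2 and 32.5 FPKM with DMSO in U266. The groups did not overlap in either line, and its changes of 0.30 and 0.27 were not shown to differ (adjusted p = 0.853). H2BC15 is 542 bases by RefSeq span and 5477 bases by GENCODE v29 exon length, so the tables may count different sequence for it.

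**Figure D5:**
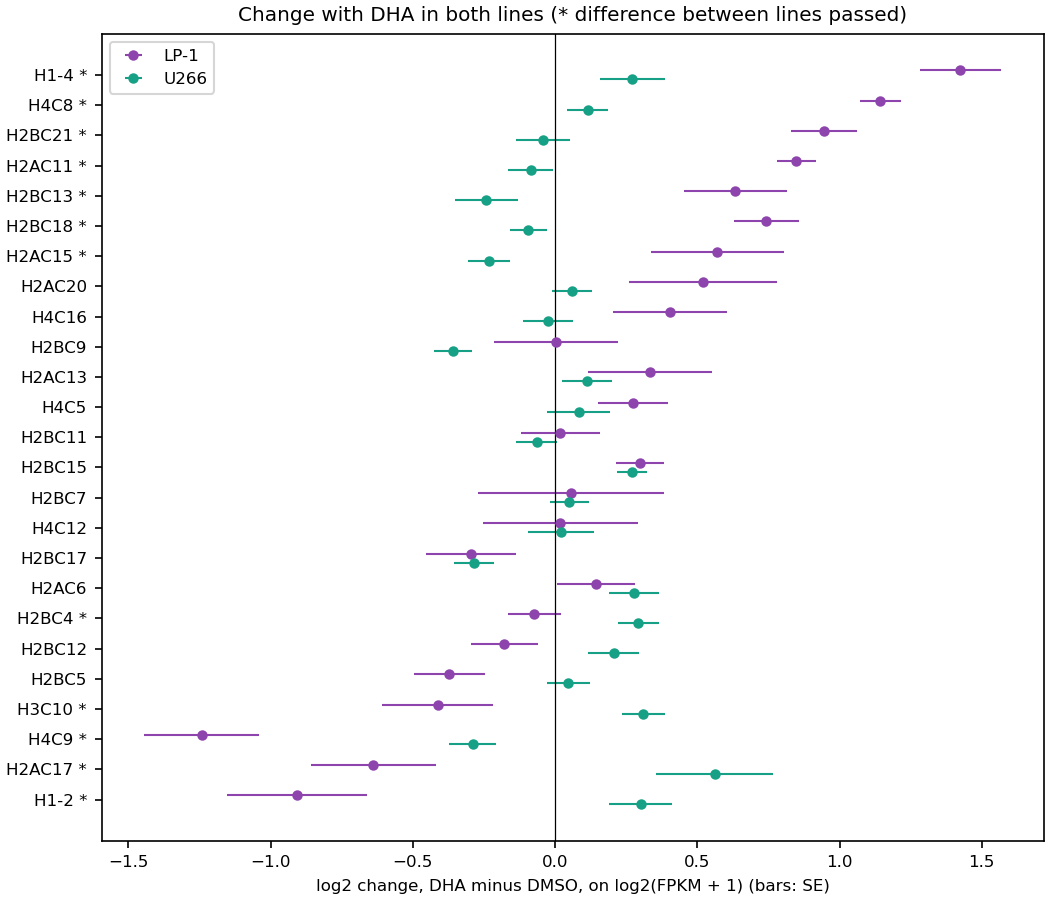
Log2 change with DHA (x axis, DHA minus DMSO on log2(FPKM + 1), bars SE) of the 25 histone genes tested in both lines, LP-1 (purple) above U266 (green) for each gene, ordered by the difference. A star marks the 12 genes whose change differed between the lines, with H1-4 at 1.42 in LP-1 and 0.27 in U266 at the top and H1-2 at -0.91 and 0.30 at the bottom.

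Of the factors that transcribe, cut and degrade histone mRNA, 7 of 20 rose and 3 fell in LP-1 (median log2 change 0.27), and 4 rose and 8 fell in U266 (-0.09). For these and the next lists, the shares over all genes are 20% risen and 20.2% fallen in LP-1 and 21.1% risen and 19.6% fallen in U266. POU2AF1, the B lineage coactivator of octamer-binding factors, averaged 9.43 ± 0.261 FPKM with DHA and 18.4 ± 2.76 FPKM with DMSO in LP-1, and 29.4 ± 0.46 FPKM with DHA and 55.1 ± 1.21 FPKM with DMSO in U266 (SD, n = 3 each). It fell by 0.88 in both lines (adjusted p = 0.00225 and 3.05e-07). Whether POU2AF1 acts on histone genes in these cells was not tested. ZNF473 rose in both lines, by 0.75 in LP-1 and 0.74 in U266 (adjusted p = 0.00429 and 0.000374). NPAT rose by 0.47 in LP-1 (adjusted p = 0.046, lost under 6 of 14 alternatives) and did not pass in U266 (0.02, and -0.08 with TMM-style scaling). SLBP fell by 0.27 in U266 (adjusted p = 0.00235), at 68.6 ± 3.41 FPKM with DHA and 82.9 ± 3.16 FPKM with DMSO, and did not pass in LP-1 (0.09). SLBP in LP-1 was at -0.04 without DMSO replicate 2, and at 0.30 without DMSO replicate 3, where it passed as a rise (adjusted p = 0.00721).

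Among S phase and DNA replication genes in LP-1, 13 of 38 rose and 6 fell (median log2 change 0.12), led by CDC6, which loads the replicative helicase, at 28.8 ± 0.97 FPKM with DHA and 10.1 ± 0.312 FPKM with DMSO (1.43, adjusted p = 0.0001), and by MCM6, a helicase subunit (1.10). In U266, 2 of 38 rose and 22 fell (median -0.31). CCNE1, cyclin E1, fell by 0.90 in U266, at 4.93 ± 0.524 FPKM with DHA and 10.1 ± 0.448 FPKM with DMSO (adjusted p = 1.98e-05), and MCM4, a helicase subunit, by 0.75. The difference between the lines was not tested for this list as a whole.

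Histone chaperones, which carry histones to DNA, had 4 rises and 3 falls among 20 tested genes in LP-1 and 2 rises and 8 falls among 19 in U266, and the LP-1 counts lie near the shares over all genes. ASF1A, an H3-H4 chaperone, rose by 1.17 in LP-1 and by 0.67 in U266 (adjusted p = 0.000413 and 1.57e-05). NAP1L1, an H2A-H2B chaperone, fell by 0.54 in LP-1 (the call was lost under 5 of 14 alternatives, with an adjusted p of up to 0.102), and HIRA, which deposits the variant H3.3, rose by 0.44 in U266. Replication-independent variants, whose mRNAs are polyadenylated, had no rise and 3 falls among 9 tested genes in LP-1 and 3 rises and 4 falls among 11 in U266. H1-10, a linker variant, fell by 0.97 in LP-1, at 187 ± 2.27 FPKM with DHA and 370.5 ± 60.8 FPKM with DMSO (adjusted p = 0.00263). H2AJ fell by 0.92 in LP-1 and rose by 0.47 in U266, and H3-3A, which encodes H3.3, fell by 0.62 in U266 (adjusted p = 1.1e-05).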

How the data were processed

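The authors deposited 1 table of FPKM values per line, of 61806 genes by Ensembl identifier for LP-1 and of 19130 symbols for U266, with 3 libraries per group. Per the labels' protocols, an RNeasy kit was used for the RNA and a SMARTER mRNA kit for the libraries. Per the submitters' processing notes the builds were GRCm38 and mm10, which are of mouse, whereas the genes in both tables are human. Aligner, counting tool, strandedness and read selection are not stated. The U266 columns were matched to DHA and DMSO by their names.

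Reads per library were recovered from the spacing of low FPKM values (at most 20 reads), using GENCODE v29 exon lengths. Of these values, 75.4% to 78.7% in LP-1 libraries and 94.5% to 95.6% in U266 libraries came within 0.1 read of a whole number. FPKM values are not counts, and no count test was made.

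Each line was fitted on its own with limma 3.58.1 in R 4.3.3 (lmFit, and eBayes with a variance trend) on log2(FPKM + 1), for genes with at least 1 FPKM in at least 3 of 6 libraries. The difference between lines was the interaction in 1 fit of all 12 libraries. All tests were two-sided, p-values were adjusted over all genes tested by the Benjamini-Hochberg method, and the threshold was 0.05. The pseudocount makes fold changes of low genes too small. The fits were tested on simulated data. P-values measure only the spread between these libraries, which may be technical. Shares and medians over the histone genes were described without a test.

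Named genes were, per line and class, up to 2 called genes with the largest rise, up to 2 with the largest fall and the 2 with the highest mean; the 6 with polyadenylated forms, NPAT and SLBP; genes called in both lines; the 3 largest differences between lines each way; and of each gene list the 2 called genes with the largest change. Other histone genes were named after their values were seen. The genes and lists were chosen with earlier results of these data known. Fits were repeated with a pseudocount of 0.1, without the filter, with genes averaging at least 5 FPKM, after TMM-style scaling (trimming 30% of log ratios and 5% of levels) or quantile normalization, without the variance trend, with all 12 libraries in 1 fit, with a replicate block and with each library left out in turn. Shares were also summed in other ways.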

Additional observations from a re-analysis of the deposited data

Results flagged for a closer look

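The change with DHA differed between LP-1 and U266, by the interaction test, for 12 of the 25 histone genes tested in both. Over all 8868 genes tested, 34.7% differed. Values are the log2 change in LP-1 minus that in U266. The change was higher in LP-1 for H1-4 (1.15), H4C8 (1.03), H2BC21 (0.99), H2AC11 (0.93), H2BC13 (0.88), H2BC18 (0.84) and H2AC15 (0.80). Of these, H1-4, H2BC13 and H2BC18 had passed the LP-1 filter through the DHA libraries alone. It was lower in LP-1 for H1-2 (-1.21), H2AC17 (-1.20), H4C9 (-0.95), H3C10 (-0.72) and H2BC4 (-0.36). Of these 5, all but H4C9 had changes of opposite sign in the lines. H1-2, H3C10 and H2BC4 were at -0.91, -0.41 and -0.07 in LP-1 and 0.30, 0.31 and 0.29 in U266. Of these changes, those of H1-2 in LP-1 and of H3C10 and H2BC4 in U266 passed on their own. H4C9 fell in both lines. H2AC17, at -0.64 in LP-1 and 0.56 in U266, passed in neither line alone, and H2AC15 did not pass in LP-1; both overlap another annotated gene.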

How the results depend on the processing

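Among genes averaging at least 5 FPKM, LP-1 had 4 rises (7 in the report). Falls in LP-1 numbered 5 with all 12 libraries in 1 fit and 5 with quantile normalization (3 in the report). Rises in U266 numbered 2 with TMM-style scaling, 2 with all 12 libraries in 1 fit, 1 with no filter and 4 with no variance trend (8 in the report), and falls 0 with all 12 libraries in 1 fit and 7 with no filter (11 in the report). The cause of these shifts was not tested. With each library left out in turn, rises ranged from 5 to 9 and falls from 2 to 6 in LP-1, and rises from 3 to 12 and falls from 9 to 11 in U266; the median log2 change ranged from 0.11 to 0.20 in LP-1 and from -0.08 to 0.07 in U266. The LP-1 share (DHA minus DMSO) was -0.00485 points in the report, from -0.0196 to 0.014 with a library left out, and 0.0273 without H1-2. Histone genes that differed between the lines numbered 8 to 18 over all alternatives (12 in the report). For none of these alternatives were the shares over all genes counted.

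Direction turned for genes that had not passed. In U266 the log2 change was -0.051 for H2AC20, -0.065 for H2BC5, -0.041 for H4C2 and -0.081 for NPAT with TMM-style scaling, and -0.094 for H2AC20, -0.037 for H2BC12, 0.034 for H2BC21 and -0.034 for NPAT with quantile normalization. With each library left out in turn, it ranged from -0.12 to 0.0097 for H2BC4 and from -0.043 to 0.30 for SLBP in LP-1, and from -0.14 to 0.076 for H2BC21, from -0.010 to 0.11 for H2BC5, from -0.021 to 0.15 for H4C2 and from -0.061 to 0.063 for NPAT in U266. Of 63 results on named genes, 35 kept direction and call under every alternative, 14 lost a call and 9 gained one under at least 1.

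Replicate numbers did not pair the samples: deviations of same-numbered libraries correlated at 0.07, 0.02 and 0.18 in LP-1 and at -0.04, -0.08 and -0.02 in U266, and not every library correlated best with its own number. With a replicate block, 7 rose and 4 fell in LP-1, 11 rose and 11 fell in U266 and 13 differed between the lines. The shares over all genes were not counted with this block. In LP-1, 39 of the 65 genes were too low to test.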

Other observations

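Many H2A and H2B genes stand head to head. Among the 65 genes there were 12 such pairs, 11 of them H2A with H2B, with 219 to 357 bases between their annotated starts. In U266 both genes rose in H2BC4 with H2AC6 (219 bases apart) and H2AC25 with H2BC26 (234 bases), and both fell in H2AC14 with H2BC14 (304 bases). H2BC12 and H2AC12 (331 bases) went apart there, at log2 changes of 0.21, which did not pass, and -0.78, which did. In LP-1, H2AC11 rose by 0.85 while H2BC11, 292 bases away, did not pass (0.02). H2BC21 rose by 0.95 in LP-1 beside H2AC20, 323 bases away, which did not pass (0.52). No test was made over pairs.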
